A study of Mus musculus with 4 samples.

Results

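Ribosome biogenesis was described here through 38 mouse genes whose products work in the nucleolus, the nuclear body where ribosomes are built. The members were given by symbol, and each was read by the probe set that names it alone, taking the brightest on average where a gene had several. On that rule 36 of the 38 could be read, among 22180 genes with such a probe set, while Fbl and Tsr1 had no probe set of their own. The 36 split into 6 genes of RNA polymerase I and its factors, 7 of the small nucleolar ribonucleoproteins (snoRNPs), 8 of the small subunit, 11 of the large subunit and 4 other abundant nucleolar proteins.

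The data are log2 expression values from 4 arrays, 1 for each condition and with no replicates. Of these, 2 arrays hold induced pluripotent stem cells (iPSC), stable clones derived from fibroblasts with Sumo2 knockdown, 1 labelled 38 h and 1 labelled 10 day; what that time counts is not stated. The other 2 hold bulk cultures of reprogrammable mouse embryonic fibroblasts at day 6 of doxycycline, 1 with knockdown of Sumo2 and 1 with knockdown of Firefly, an insect gene taken as the control. All 4 share the strain Black6-129X1/SvJ, pooled male and female origin, serum-containing stem cell medium, ascorbic acid and doxycycline treatment per the labels. Doxycycline switches on the reprogramming factors in such fibroblasts. Sumo2, which encodes a small protein attached to other proteins, read 10.56 in the Sumo2-labelled culture and 10.65 in the Firefly culture. Its probe set thus read 0.938 of the control level. The knockdown named in the label is therefore not visible in this probe set, and the sample is called the Sumo2-labelled culture. Whether the transcript itself was lowered cannot be told from this probe set alone.

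As background, RNA polymerase I transcribes the long precursor of the ribosomal RNAs. Guided by box C/D and box H/ACA snoRNPs, the precursor is methylated and pseudouridylated, cut, and folded by the small subunit processome and by large subunit assembly factors. The activity is high in growing cells and is driven by MYC family factors. SUMO is part of this system in human cells, where the nucleolar protease SENP3 removes SUMO2 from NPM1 and PELP1.

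Markers of the labelled cell types were present. Of 10 pluripotency markers, 9 were measured on the iPSC arrays and all 9 rose there by limma adjusted p; Dppa5a lay below the measuring floor on all 4 arrays. That floor is the median of the single-gene probe sets, 6.64 to 6.67 on the 4 arrays. Mean log2 levels of those 9 were 11.21 and 11.39 in the 38 h and 10 day lines, against 8.24 in the Sumo2-labelled and 7.06 in the Firefly culture. Of 10 fibroblast markers 8 were at or above the floor in both day 6 cultures (Lum and Postn were not). In the 38 h line 9 were, and in the 10 day line 8. By limma adjusted p 3 of 9 measured fibroblast markers fell in iPSC and 2 rose, against 17.8% and 29.0% of measured genes. Postn read 9.05 and 8.27 in the 38 h and 10 day lines, against 6.00 and 6.58 in the Sumo2-labelled and Firefly cultures. Fbln1 read 10.25 and 10.29 against 9.23 and 9.21 in the same order. Lower in both lines were Thy1, at 8.85 and 8.69 against 11.23 and 11.71, and Prrx1, at 9.56 and 9.11 against 11.58 and 11.67. Dcn read 6.82 and 5.16 (below the floor) against 7.07 and 7.95. Col1a1 read 10.64 and 10.38 against 10.13 and 10.74. The macrophage genes Ptprc, Csf1r and Adgre1 were below the floor on every array. The other 2 macrophage list genes rose in iPSC by limma adjusted p, with Cd68 at 9.47 and 10.02 against 8.72 and 8.69 and Lyz2 at 7.80 and 7.92 against 6.09 and 7.15 in the order 38 h, 10 day, Sumo2-labelled, Firefly.

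The first comparison asked how the machinery differed between the Sumo2-labelled and the Firefly culture at day 6. All 36 genes read higher in the Sumo2-labelled culture, by small steps: the log2 differences ran from 0.08 for Polr1c to 0.84 for Gar1, with a median of 0.41. Of all 11740 measured genes 53.7% were higher, and their median was 0.02. Of the 36, 33 lay above the upper quartile of all measured genes (0.22), which 25.0% of genes do by construction. At 2-fold 0 members were higher or lower, against 0.945% and 0.23% of measured genes. At 1.5-fold 6 were higher, against 4.09%, and 0 were lower, against 2.81%. With 1 array on each side there is no replicate check and no test, and in bulk cultures fewer cells of a type and less RNA per cell cannot be told apart. All 36 lay above the measuring floor on all 4 arrays, so no member entered only through its brighter side.

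**Figure D1:**
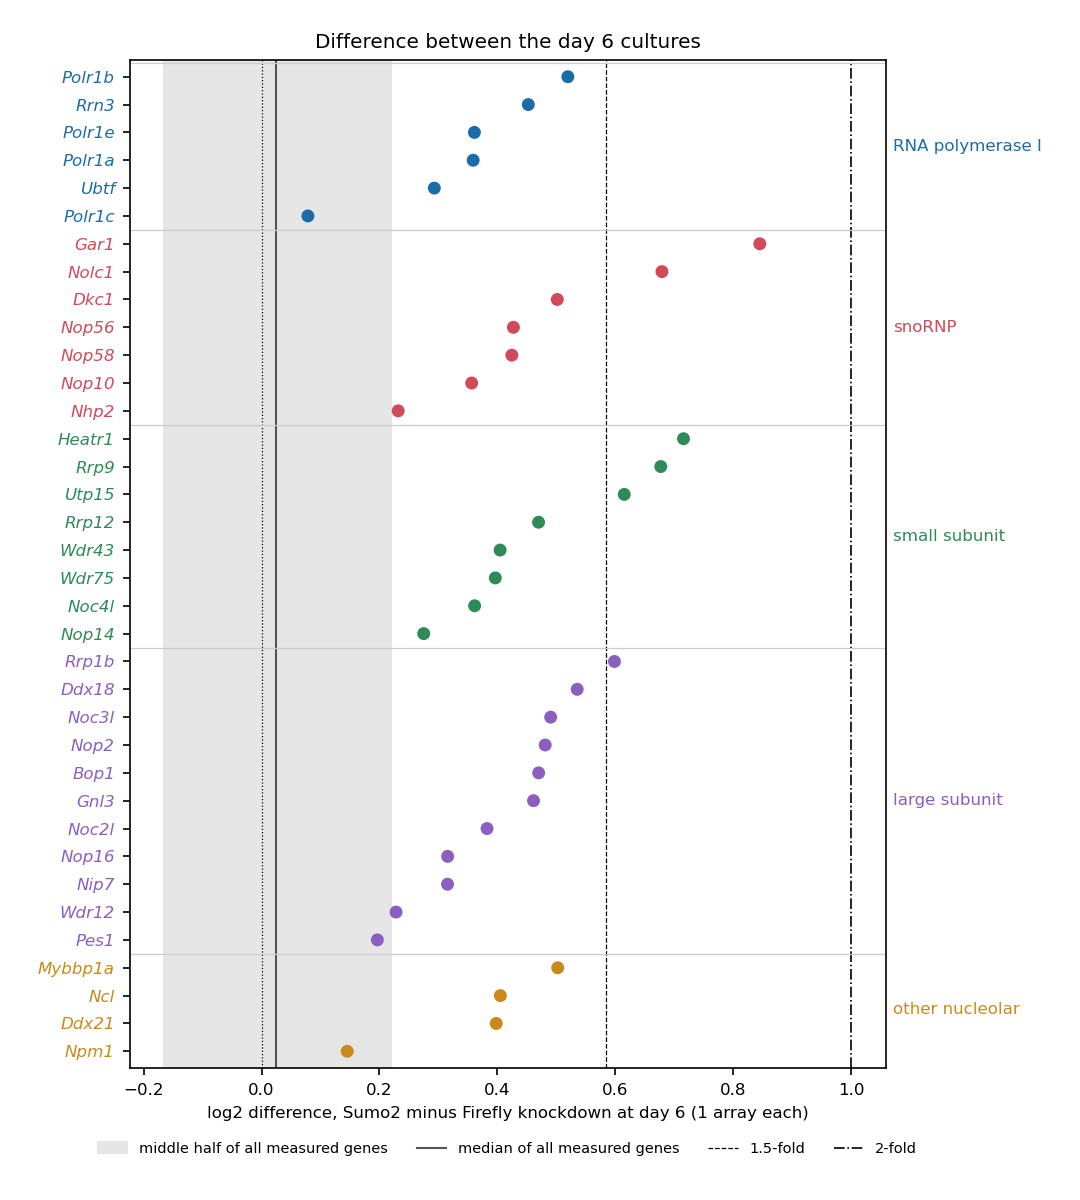
Each point is the log2 difference of 1 gene between the Sumo2-labelled and the Firefly culture at day 6 (1 array each), grouped and coloured by role, with the interquartile range of all measured genes in grey and lines at 1.5-fold and 2-fold. All 36 points lie right of 0, 33 of them right of the grey band, and 6 right of the 1.5-fold line.

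The snoRNP genes included the one with the largest difference. Gar1, a core protein of the box H/ACA particles that guide pseudouridylation, read 8.91 in the Sumo2-labelled culture and 8.07 in the Firefly culture, 1.80-fold higher and above 98.5% of measured genes. Nolc1, a chaperone of snoRNPs, read 9.72 against 9.04 (1.60-fold). These were the 2 snoRNP genes past 1.5-fold. Dkc1, the pseudouridine synthase of the same particles, read 10.48 against 9.98, and its partners Nop10 and Nhp2 read 10.93 against 10.57 and 9.61 against 9.38. Of the box C/D proteins, which carry methylation guides, Nop56 read 10.96 against 10.54 and Nop58 10.05 against 9.63, differences of 0.43 and 0.42. The other Nop56 probe sets differed by 0.15 and -0.001, and the median over its probe sets by 0.15.

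In the small subunit group all 8 genes exceeded the upper quartile of all measured genes. Heatr1 and Utp15, which belong to the processome subcomplex that also aids transcription of ribosomal DNA, read 9.57 against 8.86 (1.64-fold) and 9.27 against 8.65 (1.53-fold). Rrp9, a protein of the snoRNP that directs early cleavage, read 9.89 against 9.21 (1.60-fold). The other 5 differed by less than 1.5-fold. Wdr43 and Wdr75, in the same subcomplex as Heatr1, differed by 0.40 and 0.40, the late factor gene Rrp12 by 0.47, and the partner genes Noc4l and Nop14 by 0.36 and 0.28.

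Among the 11 large subunit genes Rrp1b, whose product binds pre-ribosomes, led with 8.62 in the Sumo2-labelled culture and 8.02 in the Firefly culture (1.51-fold), followed by the helicase gene Ddx18 with 10.02 against 9.48. The subunits of the PeBoW complex, which processes the large subunit RNA, did not move by equal steps: Bop1 read 10.12 against 9.65, Wdr12 7.63 against 7.40 and Pes1 10.15 against 9.95. Nop2, an RNA methyltransferase, differed by 0.48, Noc3l by 0.49, Gnl3, also known as nucleostemin, by 0.46, and Noc2l by 0.38. Nop16 and Nip7 differed by 0.32 and 0.32.

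The RNA polymerase I group had a median of 0.36. Polr1b, the second largest subunit, read 9.54 against 9.02, and Rrn3, the factor that recruits the polymerase to its promoter, read 10.54 against 10.09. The catalytic subunit gene Polr1a read 9.76 against 9.40, Polr1e 7.95 against 7.59, and the ribosomal DNA binding factor gene Ubtf 10.30 against 10.01. Polr1c, whose product is shared with RNA polymerase III, had the smallest difference of all 36 genes, at 9.87 against 9.79. After cyclic loess, another scaling, all 36 genes were still higher but Polr1c by only 0.002.

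The abundant nucleolar proteins were higher as well. Mybbp1a, which binds Myb proteins and represses ribosomal DNA transcription, read 11.38 in the Sumo2-labelled culture and 10.87 in the Firefly culture, Ncl (nucleolin) 11.26 against 10.85 and the helicase gene Ddx21 11.08 against 10.68. Npm1 (nucleophosmin, a histone and ribosome chaperone) differed least of the 4, at 11.91 against 11.76. Processed copies of Npm1 are spread over the mouse genome, and its probe set may read some of them. A dimmer Npm1 probe set differed by 0.29.

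Promoter sequences are shown for 5 members as background, since MYC and ETS factors are known to bind such promoters. The part of these factors in the differences above was not tested. RefSeq windows (GRCm38.p6) from 250 bases before to 50 after the start were found for 34 of the 38 members, 43 windows in all. The palindrome CACGTG, an E-box of MYC and its relatives, was in 6 of 43 windows (14.0%), against 10.0% of the 12671 windows of genes measured in any of the cultures and 7.15% of all 32851. CCGGAAG, an ETS family core, searched on both strands, was in 13 (30.2%), against 16.2% and 8.86%. GGGCGG, a GC box searched on both strands, was in 32 (74.4%), against 62.3% and 35.7%. The motifs share no core, though end letters of adjoining matches may overlap. These are letter matches and not bound sites.

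The 100 bases before the start follow for Gar1 and Heatr1, the members that differed most in the 2 main comparisons, for Rrn3 and Nop2, which have an E-box, and for Ncl. Capitals mark the E-box, the ETS core or the GC box on either strand. Their places are Gar1 at chr3:129831397-129831496 (minus strand), Heatr1 at chr13:12395275-12395374 (plus strand), Rrn3 at chr16:13780599-13780698 (plus strand), Nop2 at chr6:125131783-125131882 (plus strand) and Ncl at chr1:86359456-86359555 (minus strand).
Gar1: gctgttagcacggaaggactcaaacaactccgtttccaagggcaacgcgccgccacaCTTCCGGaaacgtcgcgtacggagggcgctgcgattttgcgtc
Heatr1: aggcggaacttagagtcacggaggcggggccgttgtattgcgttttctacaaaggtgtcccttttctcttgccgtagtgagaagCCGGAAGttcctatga
Rrn3: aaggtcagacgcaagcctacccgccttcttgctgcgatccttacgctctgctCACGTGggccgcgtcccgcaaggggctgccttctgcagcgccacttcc
Nop2: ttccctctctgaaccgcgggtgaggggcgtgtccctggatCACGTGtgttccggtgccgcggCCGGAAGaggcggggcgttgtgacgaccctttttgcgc
Ncl: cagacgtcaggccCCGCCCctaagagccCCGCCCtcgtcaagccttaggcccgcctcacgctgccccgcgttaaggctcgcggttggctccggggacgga
In the stretches shown, the ETS core begins 43 bases before the Gar1 start and 16 before the Heatr1 start, the Rrn3 E-box 48 before its start, and the Nop2 E-box and ETS core 60 and 38 before its start. Ncl has no E-box or ETS core in this stretch and 2 GC boxes, 87 and 72 bases before the start.

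Next, both iPSC lines were compared with both day 6 cultures, to see whether the machinery stood higher in established pluripotent cells. All 36 genes averaged higher in iPSC, and 18 rose while 0 fell at a limma adjusted p under 0.05 over all 12735 measured genes; the other 18 did not pass. Of all measured genes 58.1% averaged higher, 29.0% rose and 17.8% fell, so a shift upwards was common. Log2 differences of the 36 had a median of 0.54, against 0.15 for all measured genes, and ran from 0.10 for Polr1e to 1.15 for Heatr1. Another scaling, cyclic loess, lowered the median of all genes by 0.13 on the log2 scale, to 0.03, and left the members' median 0.33 above it, against 0.39 with the deposited values. After it 33 of the 36 averaged higher, all but Polr1e, Noc4l and Nip7. Of the 36, 5 both passed and reached 2-fold upwards, against 14.3% of measured genes, and 0 downwards, against 9.12%, and 15 lay above the upper quartile of all genes (25.0%). The arrays of a side differ in condition, so the error in this test holds the knockdown difference and the difference between the lines.

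**Figure D2:**
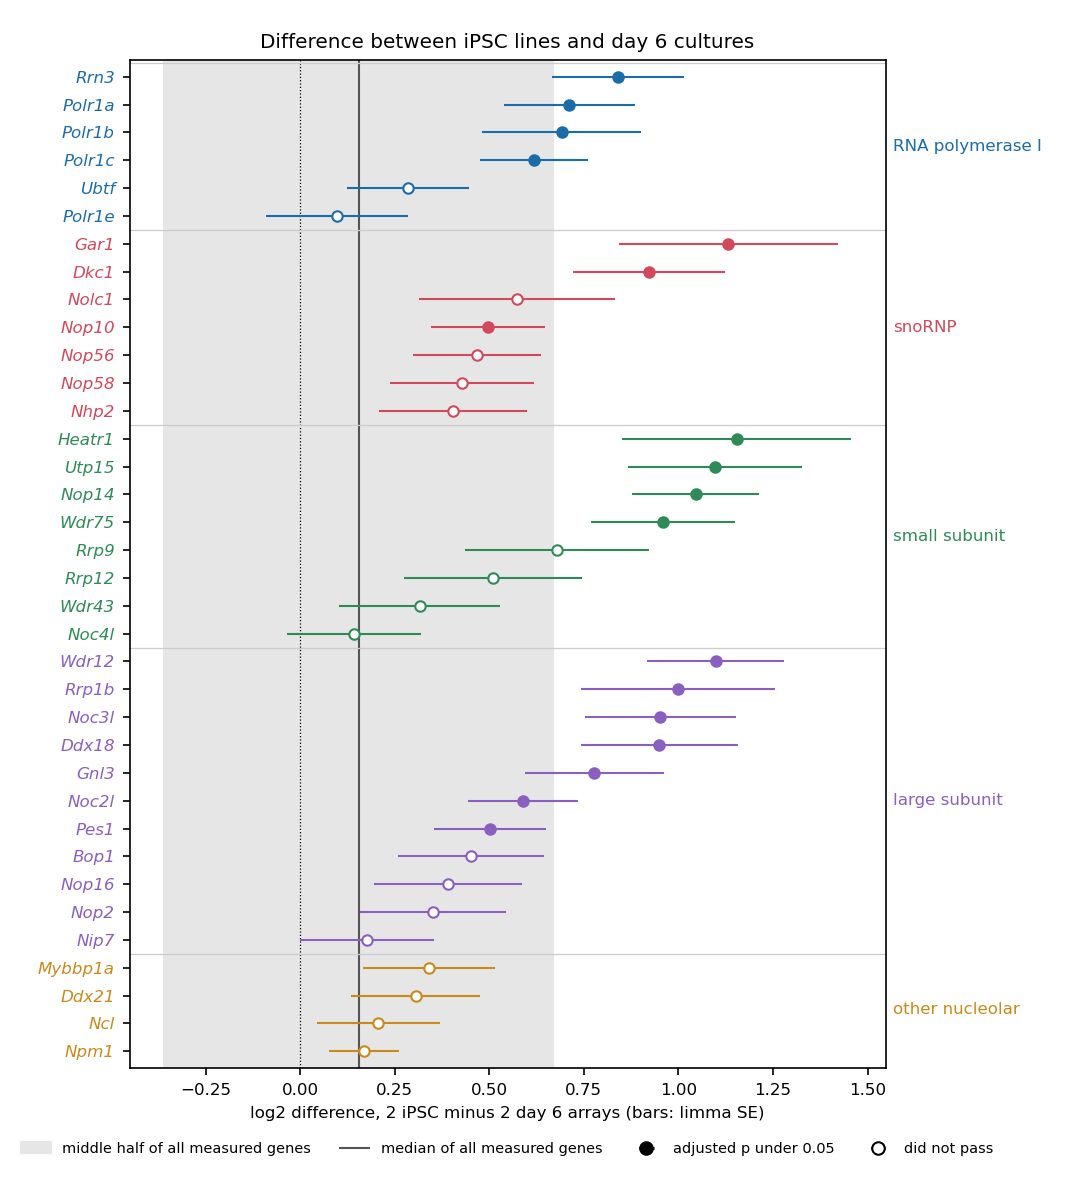
Points are log2 differences between the mean of 2 iPSC arrays and the mean of 2 day 6 arrays, bars are limma standard errors, filled points have an adjusted p under 0.05, and grey is the interquartile range of all measured genes. All 36 points lie right of 0, and 18 are filled, with Heatr1, Gar1, Wdr12, Utp15 and Nop14 past 1 on the log2 scale.

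The small subunit genes had the highest median of the 5 groups, 0.82, and 4 of 8 rose, against 29.0% of measured genes. Heatr1 read 10.68 and 10.06 in the 38 h and 10 day lines, against 9.57 and 8.86 in the Sumo2-labelled and Firefly cultures (log2 difference 1.15, SE 0.30, limma adjusted p = 0.0220). Utp15 read 10.09 and 10.02 against 9.27 and 8.65 in the same order (log2 difference 1.10, SE 0.23, limma adjusted p = 0.0100). Nop14, a scaffold of the processome, read 10.03 and 10.06 against 9.14 and 8.86 (log2 difference 1.05, SE 0.17, limma adjusted p = 0.00408), and Wdr75 also rose (log2 difference 0.96, SE 0.19, limma adjusted p = 0.00838). For these 4 genes both lines stood above both cultures, as they also did for Rrp9 and Rrp12. Rrp9, Rrp12, Wdr43 and Noc4l did not pass, with log2 differences of 0.68, 0.51, 0.32 and 0.14.

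Of the snoRNP genes 3 of 7 rose (Gar1, Dkc1 and Nop10), against 29.0% of measured genes. Gar1 read 9.73 and 9.51 in the 38 h and 10 day lines, against 8.91 and 8.07 in the Sumo2-labelled and Firefly cultures (log2 difference 1.13, SE 0.29, limma adjusted p = 0.0200). Dkc1 read 11.01 and 11.29 against 10.48 and 9.98 in the same order (log2 difference 0.92, SE 0.20, limma adjusted p = 0.0116) and Nop10 11.28 and 11.21 against 10.93 and 10.57 (log2 difference 0.50, SE 0.15, limma adjusted p = 0.0355). The fourth box H/ACA core protein gene, Nhp2, did not pass (log2 difference 0.40, SE 0.20, limma adjusted p = 0.135). Neither box C/D protein gene passed, with Nop56 at 0.47 (limma adjusted p = 0.0614) and Nop58 at 0.43 (limma adjusted p = 0.109), and Nolc1 was at 0.57. Nop56 had 2 dimmer probe sets, of which 1 lay below the floor at day 6 and differed by 2.05, so its probe sets disagree in size. The other dimmer probe set differed by 0.38. As the median of its probe sets Nop56 passed (1.20, limma adjusted p = 0.00257). That median fell on 1 probe set in the Firefly and Sumo2-labelled cultures (7.03 and 7.18). In the 38 h and 10 day lines it fell on another (8.42 and 8.20). The 1.20 is thus the change of no probe set of its own, and no rise is read from it. Without the Sumo2-labelled array the brightest probe set differed by 0.68.

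In the large subunit group 7 of 11 rose, against 29.0% of measured genes. Wdr12 read 8.74 and 8.48 in the 38 h and 10 day lines, against 7.63 and 7.40 in the Sumo2-labelled and Firefly cultures (log2 difference 1.10, SE 0.18, limma adjusted p = 0.00447). Rrp1b read 9.53 and 9.11 against 8.62 and 8.02 in the same order, Noc3l 10.26 and 10.22 against 9.53 and 9.04, and Ddx18 10.79 and 10.60 against 10.02 and 9.48. Their log2 differences were 0.999 (limma adjusted p = 0.0203), 0.95 (limma adjusted p = 0.0103) and 0.95 (limma adjusted p = 0.0119). A second, dimmer Ddx18 probe set ran the other way, at -0.20, and as the median of both Ddx18 did not pass (0.37, limma adjusted p = 0.149). Gnl3, Noc2l and Pes1 rose by 0.78, 0.59 and 0.50, while Bop1 (0.45), Nop16 (0.39), Nop2 (0.35) and Nip7 (0.18) did not pass. Of the PeBoW genes, Wdr12 thus had over 1 log2 step and Pes1 and Bop1 about 0.50 and 0.45.

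RNA polymerase I genes rose in 4 of 6 cases, against 29.0% of measured genes. Rrn3 read 11.19 and 11.12 in the 38 h and 10 day lines, against 10.54 and 10.09 in the Sumo2-labelled and Firefly cultures (log2 difference 0.84, SE 0.18, limma adjusted p = 0.00998). Polr1a read 10.29 and 10.29 against 9.76 and 9.40, Polr1b 10.03 and 9.92 against 9.54 and 9.02 and Polr1c 10.51 and 10.38 against 9.87 and 9.79, in the same order. These rose by 0.71, 0.69 and 0.62 on the log2 scale. Ubtf (0.28) and Polr1e (0.10) did not pass. Polr1c, nearly equal in both day 6 cultures, was separated from the iPSC lines, whereas Polr1e read higher in the Sumo2-labelled culture than in either line.

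None of the 4 other nucleolar genes passed in this test of 2 arrays against 2, but Npm1 did as the median of its probe sets (0.58, limma adjusted p = 0.0444) and Mybbp1a did without the Sumo2-labelled array (0.59, limma adjusted p = 0.0239). Ncl read 11.35 and 11.17 in the 38 h and 10 day lines, against 11.26 and 10.85 in the Sumo2-labelled and Firefly cultures (log2 difference 0.21, SE 0.16, limma adjusted p = 0.326). Ddx21 read 11.31 and 11.06 against 11.08 and 10.68 in the same order, Mybbp1a 11.50 and 11.43 against 11.38 and 10.87 and Npm1 11.98 and 12.02 against 11.91 and 11.76. Their log2 differences were 0.31, 0.34 and 0.17, with limma adjusted p between 0.153 and 0.183. In each of these 4 genes the Firefly culture was lowest and the Sumo2-labelled culture lay closer to the lines than to it. A dimmer Ddx21 probe set read lower in iPSC, by 0.27 on the log2 scale, and the dimmer Npm1 probe set higher, by 0.99. As the median of its probe sets Ddx21 differed by only 0.017 (limma adjusted p = 0.950).

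**Figure D3:**
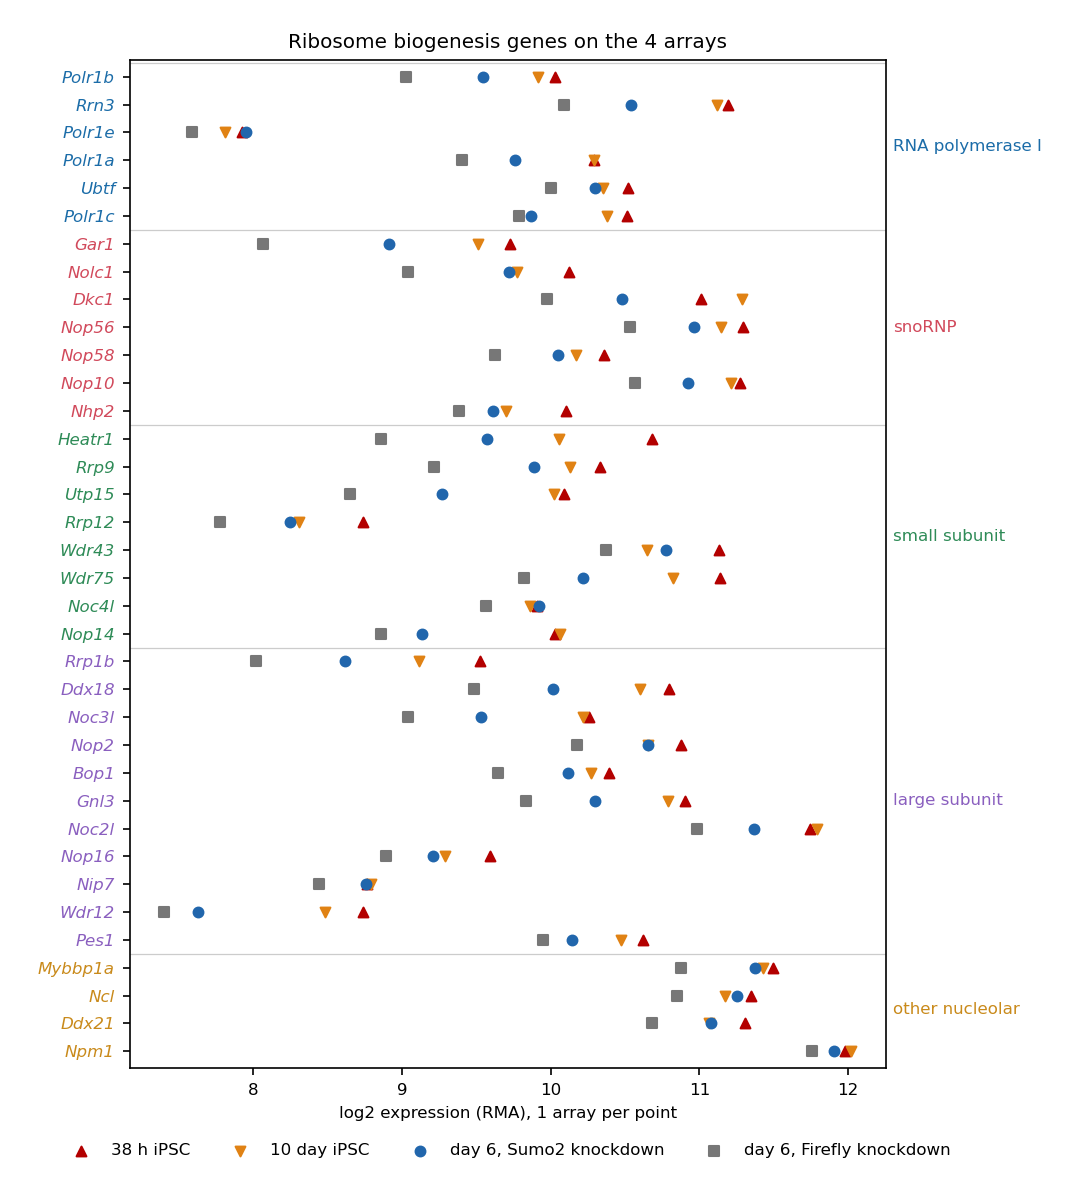
Log2 expression of each of the 36 genes on each of the 4 arrays, with a marker for each array, 1 row per gene and the rows grouped by role. The square of the Firefly culture is leftmost in every row, and the circle of the Sumo2-labelled culture reaches or passes the lower iPSC line in 5 rows.

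Across the 4 arrays the Firefly culture was the lowest for 36 of 36 genes, as it was for 38.1% of measured genes. In 31 genes the Sumo2-labelled culture stood between the Firefly culture and both lines, an order found in 32.2% of measured genes. In the other 5 it was at or above the lower line, against 48.8%. Those were Polr1e (7.92 and 7.81 against 7.95 and 7.59 in the order 38 h, 10 day, Sumo2-labelled, Firefly), Noc4l (9.91 and 9.86 against 9.92 and 9.56), Wdr43 (11.13 and 10.65 against 10.78 and 10.37), Ncl and Ddx21. The 38 h line was highest for 28 genes (30.3% of measured genes), the 10 day line for 6 (28.0%), the Sumo2-labelled culture for 2 (15.7%) and the Firefly culture for 0 (26.0%). Set against each day 6 culture alone, the iPSC mean was a median of 0.33 above the Sumo2-labelled culture and 0.72 above the Firefly culture, against 0.13 and 0.17 for all measured genes. Without the Firefly array 6 of 36 passed (Rrn3, Nop14, Utp15, Wdr12, Noc3l and Ddx18) and 34 averaged higher, against 15.0% of all measured genes that rose in that fit and 58.4% that averaged higher, so the share that passed was near that of all genes. Without the Sumo2-labelled array 23 passed, against 22.7% of all genes, with Nop56, Nolc1, Rrp9, Bop1 and Mybbp1a passing as well. Without the 38 h array 12 passed, against 25.4%, and Polr1b, Polr1c, Nop10, Heatr1, Pes1 and Rrp1b no longer did. Without the 10 day array 15 passed, against 24.4%, and Polr1b, Nop10 and Pes1 no longer did. Both comparisons share the day 6 arrays, so their values are not independent.

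The third comparison set the 38 h line against the 10 day line. Of the 36 genes 30 were higher in the 38 h line, against 52.5% of 11754 measured genes, with a median log2 difference of 0.15, against 0.02 for all. In either direction 0 reached 2-fold, against 1.03% of measured genes higher and 2.19% lower. At 1.5-fold 1 was higher, against 4.11%, and 0 were lower, against 6.44%. Heatr1 was that gene, at 10.68 in the 38 h line and 10.06 in the 10 day line. The processome genes Wdr43 (11.13 in the 38 h line and 10.65 in the 10 day line) and Rrp12 (8.74 in the 38 h line and 8.31 in the 10 day line) and the large subunit gene Rrp1b (9.53 in the 38 h line and 9.11 in the 10 day line) came next. Npm1, Nip7, Noc2l, Nop14, Polr1a and Dkc1 were lower in the 38 h line, the first 5 by less than 0.05. The dimmer Npm1 probe set differed by more, at 8.89 in the 38 h line and 9.71 in the 10 day line (-0.81). There is 1 array per line and no test.

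Dkc1, at 11.01 in the 38 h line and 11.29 in the 10 day line, was the only X-linked gene of the 36. Of 118 further ribosome biogenesis genes with a probe set of their own, 4 are X-linked, and each was lower in the 38 h line: Tsr2, a chaperone of a small subunit protein (9.88 and 10.89 against 9.47 and 8.99 in the order of the arrays used above), Utp14a of the processome (-0.69), the nucleostemin relative Gnl3l (-0.39) and the endoribonuclease gene Las1l (-0.39). Their differences with Dkc1 ran from -1.01 to -0.27, with a median of -0.39. Of the 149 autosomal genes of both lists 118 were higher and 31 lower, with a median of 0.15. Over the whole array, 354 of 393 measured X-linked genes were lower in the 38 h line (median -0.57), against a median of 0.03 for 11299 autosomal genes. For iPSC over day 6, where Dkc1, Utp14a and Las1l are among the genes that rose, X-linked measured genes had a median of 0.36. Autosomal genes had one of 0.15. The part of the X chromosome in the values of Dkc1 and the further X-linked genes was not tested in either comparison.

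**Figure D4:**
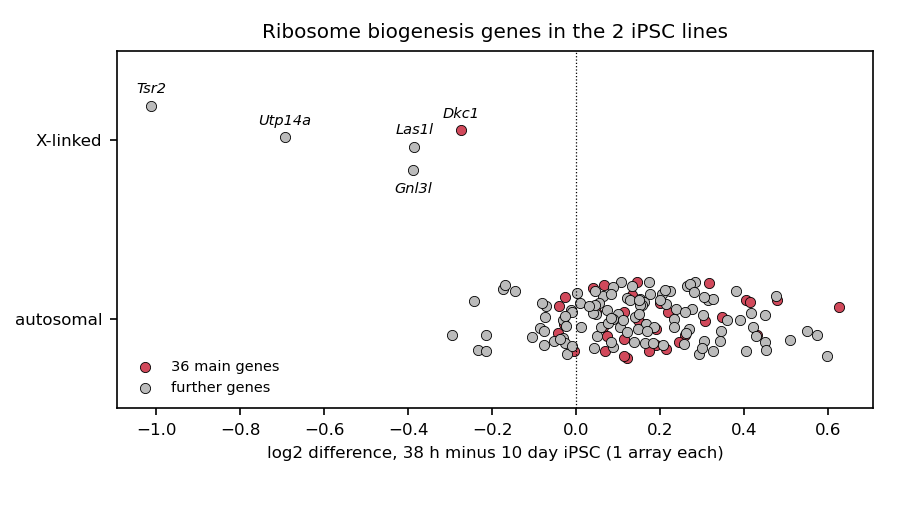
Log2 differences between the 38 h and 10 day iPSC lines (1 array each) for 154 ribosome biogenesis genes, X-linked genes above and autosomal genes below, with the 36 main genes in red and the further genes in grey; vertical scatter within a row has no meaning. The 5 X-linked genes lie between -1.01 and -0.27, and 118 of 149 autosomal genes lie right of 0.

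The rest of the pathway was read from a list of 124 further ribosome biogenesis genes, 118 of them with a probe set of their own. At day 6, 113 of 116 measured genes were higher in the Sumo2-labelled culture (53.7% of all genes were), with a median of 0.36. Of the 116, 7 were at least 1.5-fold higher, against 4.09% of all measured genes. The polymerase I subunit gene Znrd1 (9.41 against 8.53, 1.83-fold), the large AAA ATPase gene Mdn1 (8.43 against 7.68) and the RNA acetyltransferase gene Nat10 (9.95 against 9.24) differed most. Ppan (10.50 against 10.79), Rrp7a (9.06 against 9.10) and the exosome gene Exosc7 (7.46 against 7.49) were the 3 lower ones. In iPSC 61 of 118 rose (29.0% of all genes did), 1 fell and 56 did not pass, with a median of 0.57. The snoRNP assembly factor gene Shq1 (log2 difference 1.83, SE 0.17, limma adjusted p = 0.000755), Mdn1 (log2 difference 1.65, SE 0.30, limma adjusted p = 0.00598) and Utp14a (log2 difference 1.35, SE 0.25, limma adjusted p = 0.00685) rose most. Taf1d, a subunit of the polymerase I selectivity factor, was the one that fell (log2 difference -0.56, SE 0.14, limma adjusted p = 0.0200), and Rrp7a (-0.45) and Polr1d (-0.27) were lower without passing. Between the lines Nle1 (0.60), Ltv1 (0.57) and Ftsj3 (0.55) were highest in the 38 h line, and Tsr2, Utp14a and Gnl3l lowest.

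The SUMO protease gene Senp3 and its partners in the rixosome, a complex of late large subunit maturation, were among these. At day 6 all 7 were higher in the Sumo2-labelled culture, against 53.7% of measured genes. Senp3 read 10.43 against 10.02, Pelp1 10.53 against 10.21 and Tex10 9.25 against 8.82. In iPSC 5 of 7 rose, against 29.0% of measured genes. These were Senp3 (log2 difference 0.87, SE 0.17, limma adjusted p = 0.00859), Tex10 (0.79), Las1l (1.04), Nol9 (0.74) and Mdn1. Pelp1 (0.44, limma adjusted p = 0.0552) and Wdr18 (0.04, limma adjusted p = 0.873) did not pass.

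Myc and Mycn, whose products activate ribosome biogenesis genes, did not follow 1 pattern. Myc read 8.80 and 8.06 in the 38 h and 10 day lines, against 9.43 and 9.37 in the Sumo2-labelled and Firefly cultures, and fell in iPSC (log2 difference -0.97, SE 0.26, limma adjusted p = 0.0238). Its probe set may read a reprogramming transgene where that carries the same sequence. Mycn read 10.05 and 9.13 in the 38 h and 10 day lines, against 7.26 and 6.15 in the Sumo2-labelled and Firefly cultures. It lay below the measuring floor in the Firefly culture, and counted from that floor it was at least 1.53-fold higher in the Sumo2-labelled culture and rose at least 6.23-fold in iPSC (limma adjusted p = 0.00317 on the values as read).

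Genes for the parts of the ribosome itself were set beside these for comparison. At day 6 the 55 measured cytoplasmic ribosomal protein genes had a median of 0.03 (35 higher, 20 lower), and the 68 mitochondrial ribosomal protein genes one of 0.10 (51 higher, 17 lower), against 0.41 for the 36 biogenesis genes and 0.02 for all genes. In iPSC 9 of 57 cytoplasmic ribosomal protein genes rose and 6 fell (median 0.06), and 24 of 69 mitochondrial ones rose and 0 fell (median 0.38), against 29.0% and 17.8% of all measured genes and their median of 0.15. Probe sets of cytoplasmic ribosomal protein genes may read processed copies, so single genes of that list are uncertain, and the difference between lists was not tested.

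Cell cycle and cell type markers differed beside the biogenesis genes. Of 23 cell cycle genes 22 were higher in the Sumo2-labelled culture (median 0.53), and in iPSC 18 rose and 1 fell (median 0.99), against the same all-gene shares. Of the pluripotency markers 6 of 7 measured were higher in the Sumo2-labelled culture (median 0.97), as were 8 of 9 epithelial markers (median 1.24). Of all measured genes 53.7% were higher there. In contrast, 7 of 8 fibroblast markers were lower (median -0.48). Mean log2 levels of the fibroblast list over the 9 markers measured on any array were 9.19 and 8.76 in the 38 h and 10 day lines, 9.20 in the Sumo2-labelled culture and 9.65 in the Firefly culture. Those of the 10 epithelial markers were 9.03 and 9.10, 8.31 and 7.06 in the same order. Among the epithelial markers Grhl2 was below the floor in both day 6 cultures, and Dsp, Esrp1 and Ocln in the Firefly culture alone. Sox2 and Zfp42, defining pluripotency genes, were below the floor in both day 6 cultures, and Esrrb and Tdgf1 in the Firefly culture alone. Markers below the floor in the Firefly culture alone counted as measured at day 6 only through the Sumo2-labelled array. Their direction in the counts and medians above was thus set by the filter. The part of the cell cycle and cell type markers in the day 6 difference of the biogenesis genes was not tested.

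**Figure D5:**
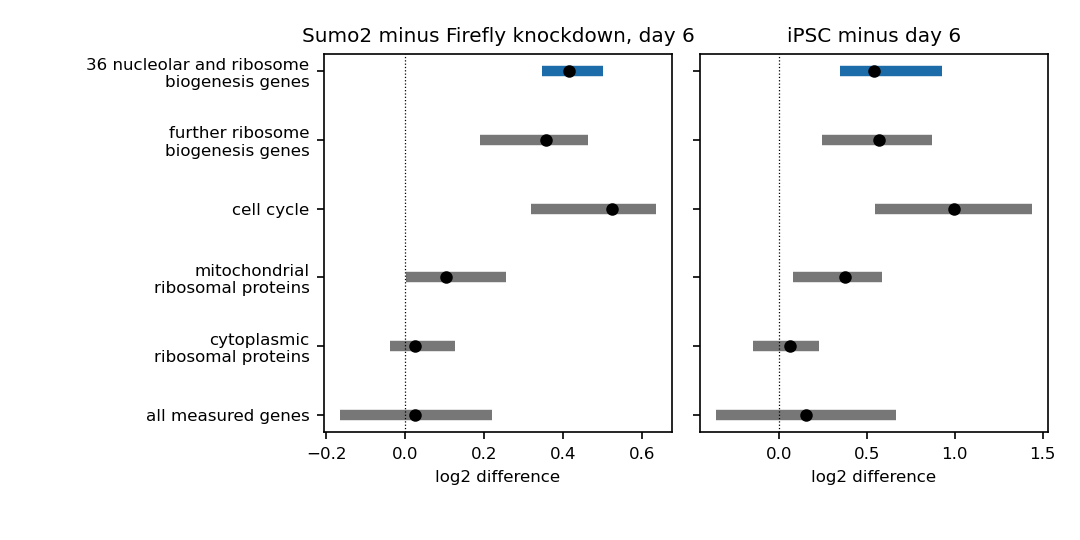
Black points are medians and bars the interquartile ranges of log2 differences over the genes of each list, for the day 6 cultures on the left and for iPSC minus day 6 on the right. At day 6 the median of the 36 genes (0.41) and that of the cell cycle list (0.53) lie right of those of cytoplasmic ribosomal proteins (0.03) and all measured genes (0.02).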

How the data were processed

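Total RNA of 4 cultures was labelled with biotin and measured on 1 array each. The deposited values are log2 expression which, per the submitters' processing notes, the authors made with RMA in Affymetrix Expression Console; versions, settings and the log base are not given in the sources used here, and base 2 was taken as the scale RMA writes. RMA equalises the distributions of the arrays, which hides any change in total RNA per cell, and it compresses differences at low and very high signal. Arrays give no counting depth, and with 1 per condition their number limits the precision.

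The table has 41345 probe sets, of which 23521 carry 1 gene symbol, 1814 several and 16010 none in the annotation used. The probe set with the highest mean was used for each of 22180 genes. A gene was measured in a comparison if it reached the floor, the median of single-symbol probe sets, on at least 1 array. The 1-against-1 comparisons used log2 differences and size rules of 2-fold and 1.5-fold, with no test. The iPSC comparison used limma 3.58.1 in R 4.3.3 (lmFit, eBayes with intensity trend, 2 residual degrees of freedom, Benjamini-Hochberg over all measured genes). Ribosomal protein and snoRNA genes were selected by symbol. All 38 members, the 3 highest and 3 lowest further genes of each comparison, the rixosome, Myc, Mycn and Sumo2 were named by rule; other genes named were chosen after their values were seen. The members and lists were chosen with earlier results of these data known. Promoter sequences are from RefSeq. Alternatives were another scaling, probe set rule, filters, trend, size rule and leaving out each array.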

Additional observations from a re-analysis of the deposited data

How the results depend on the processing

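Across cyclic loess, the median over probe sets and both other filters, all 36 genes stayed higher in the Sumo2-labelled culture and 30 in the 38 h line. A 1.5-fold rule gave 6 higher and 0 lower genes at day 6, and 1 and 0 between the lines. In the iPSC comparison these 4 alternatives and the fit without trend gave 15 to 19 risen genes against 18, and 0 fallen ones, while 16.2% to 29.7% of all genes rose. Cyclic loess ended the calls of Polr1b, Nop10 and Pes1, the fit without trend that of Nop10, and the filter on all arrays added Rrp9. With 2-fold added to the adjusted p, 5 rose, against 14.3% of measured genes. Cyclic loess gave a median of 0.36 against 0.54, and turned Polr1e (-0.037), Noc4l (-0.045) and Nip7 (-0.012), none of which passed. Leaving out 1 array in turn (1 residual degree of freedom, with the lone array assumed to vary like the others) gave 6 to 23 risen genes and medians of 0.33 to 0.72, while 15.0% to 25.4% of all genes rose and their medians were 0.14 to 0.18. The lowest values came without the Firefly array, where Polr1e (-0.083) and Noc4l (-0.038) turned; their highest values over these fits were 0.28 and 0.32, without the Sumo2-labelled array. Rrn3, Nop14, Utp15, Wdr12 and Noc3l passed in each of these fits, a share of the 36 near that of all measured genes. Limited to genes with a mean log2 level of at least 8, a background chosen after seeing the data, all-gene medians were 0.05 at day 6, 0.02 between lines and 0.20 for iPSC, and 58.3%, 53.8% and 61.4% of genes were higher. No paired analysis was possible because each condition has 1 array. The causes of these changes were not tested. The limit throughout is 1 array per condition, so neither day 6 nor line differences have an error.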

Other observations

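Small nucleolar RNAs, the guides that the snoRNP proteins carry, were read by probe sets of their own for 78 genes. At day 6, 17 of 58 measured snoRNA genes were higher and 41 lower in the Sumo2-labelled culture, with a median log2 difference of -0.12, against 0.02 for all measured genes. In iPSC 22 of 65 rose and 19 fell (median -0.06) by limma adjusted p, against 29.0% and 17.8% of all genes. Between the lines 32 of 63 were higher in the 38 h line (median 0.00). The column kit named in the labels keeps little RNA as short as most snoRNAs, and probe sets inside introns may also read the host transcript, so these values are uncertain.

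The 2 members without a probe set of their own share one with another gene. The probe set assigned to Fbl, the box C/D methyltransferase gene, together with Tulp4 read 10.54 and 10.38 in the 38 h and 10 day lines, 10.10 in the Sumo2-labelled culture and 9.61 in the Firefly culture. That of Tsr1 together with Srr read 10.33, 9.95, 9.20 and 9.02 in the same order. Which of the genes was read cannot be told. A probe set assigned to Nop56 together with Snord57, a snoRNA gene within it, ran the other way, at 11.90, 11.92, 12.45 and 12.75.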
